A study of Mus musculus with 52 samples.

Results

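The Toll-like receptor genes were followed in bulk RNA-seq of subcutaneous mouse pancreatic tumors. The set held 10 genes, Tlr1 to Tlr9 and Tlr13, out of 27525 genes in the deposited table of normalized counts. Its members were taken by gene name, from a list chosen with earlier results of these data known. KPC cells, a mouse pancreatic cancer line, had been injected under the skin of syngeneic male C57BL/6NHsd mice of 8 to 10 weeks and grown for 10 days before treatment. The 32 tumors fell into 4 groups of 8, and all were collected on day 14. Untreated tumors, named Control in the labels, received no agonist. The ADU-S100 group received a single intratumoral injection of 2 µg of ADU-S100, a cyclic dinucleotide agonist of STING, on day 0. The anti-LTbR group received the antibody 4H8, an agonist of the lymphotoxin β receptor, by 4 intraperitoneal injections of 100 µg each, the last on day 10. The combination group received both agents. All tumors came from 1 cell line, were analysed whole and had no sorting step, so each value is the RNA of tumor cells and host cells together. The labels do not name the mouse of each tumor, and p-values measure the spread between these tumors.

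Toll-like receptors are innate sensors that bind microbial lipids, proteins and nucleic acids and pass the signal through adaptor proteins to kinases that turn on NF-κB and interferon regulatory factors. TLR1, TLR2, TLR4, TLR5 and TLR6 act mainly at the cell surface, whereas TLR3, TLR7, TLR8, TLR9 and TLR13 sample nucleic acids in endosomes. Macrophages, dendritic cells and B cells carry many of them, and TLR3 and TLR4 are also found in fibroblasts, endothelium and epithelium.

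The 32 libraries held between 12762453 and 15591986 reads over the genes, with group medians from 14831778 to 15222570, so depth was even between groups. The levels of cell type markers were not. Ptprc, which encodes the pan-leukocyte antigen CD45, ran from 1310 to 1861 normalized counts in untreated tumors and from 2007 to 2952 in combination tumors, and the 2 ranges did not overlap. It was higher in combination than in untreated tumors by 0.59 ± 0.09 (log2 fold change ± SE, limma adjusted p = 0.000128). Among lists of marker genes, 4 of 6 macrophage, 4 of 6 conventional dendritic cell, 4 of 5 B cell, 4 of 4 T cell, 4 of 4 endothelial and 4 of 4 fibroblast markers tested were higher in combination tumors, whereas 3 of 5 epithelial markers were lower and none was higher. Of the other lists, 2 of 4 monocyte, 1 of 6 neutrophil, 0 of 3 plasmacytoid dendritic cell and 0 of 3 natural killer cell markers were higher and none was lower, and of 4 mast cell markers 1 was higher and 3 were lower. Of all genes tested in this comparison, 19.6% were higher and 23.6% were lower. A count near these shares, such as that of the neutrophil markers, says nothing particular about a list. A single marker, of B cells in the untreated group, was at 0 in any tumor. The summed macrophage markers ran from 10316 to 18874 in untreated, from 10531 to 13936 in ADU-S100, from 13691 to 16783 in anti-LTbR and from 14225 to 21822 in combination tumors. The summed fibroblast markers ran from 57415 to 92270 in untreated and from 98647 to 364223 in combination tumors, and the summed epithelial markers from 15947 to 28939 and from 6829 to 14654. In whole tumors a larger number of cells of a type and more RNA per cell cannot be told apart, and the part of these shifts in the receptor values below was not tested.

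**Figure D1:**
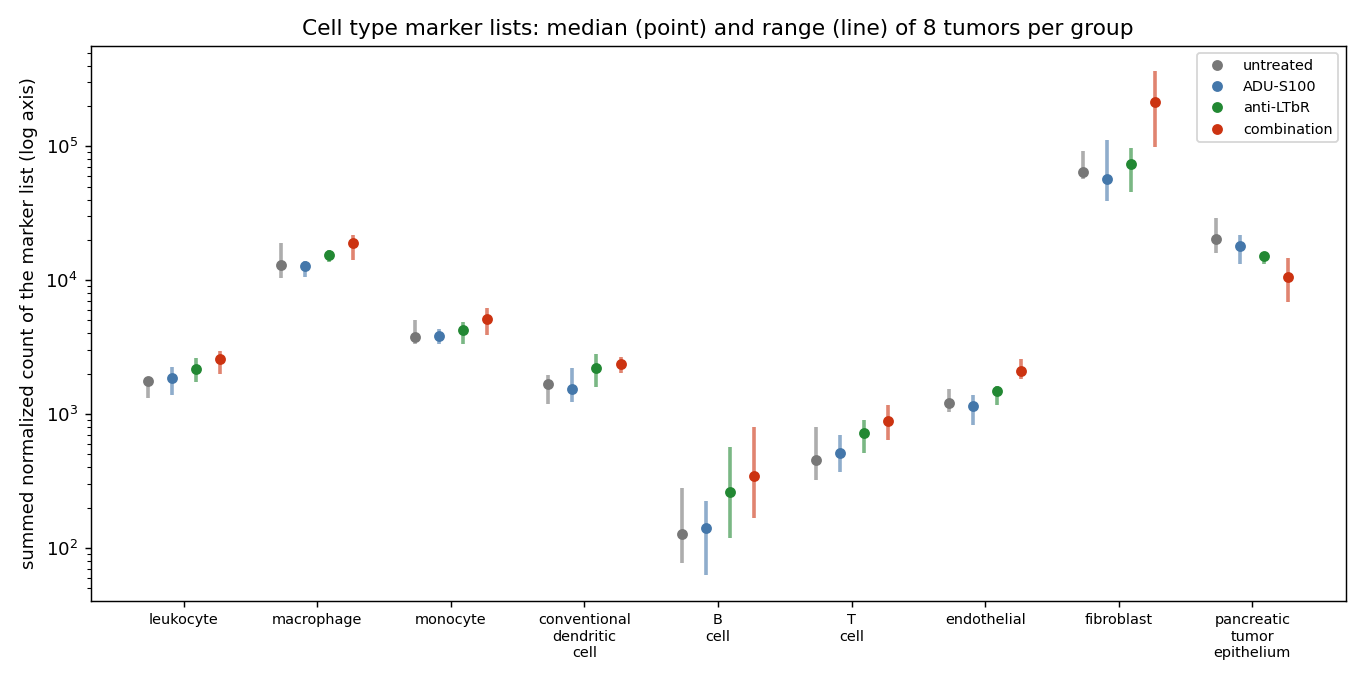
Summed normalized counts of cell type marker lists (log axis) in the 4 groups, as the median (point) and the range (line) of 8 tumors. The fibroblast sum in combination tumors (98647 to 364223) lay above every untreated tumor, and the epithelial sum (6829 to 14654) lay below every untreated tumor.

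Levels of different genes were set side by side only as normalized counts per kilobase of merged exons. In untreated tumors Tlr2 had the top level, at 145 ± 21.8 per kilobase (SD, n = 8), and its lowest tumor (120) lay above the highest tumor of Tlr13 (104). Tlr13, Tlr3, Tlr4, Tlr1, Tlr9 and Tlr8 followed with means of 87.8, 78.6, 77.3, 65.2, 56.7 and 55.1 per kilobase, and neighbors in that order overlapped. Tlr7 had 32.8 ± 7.67 per kilobase. Tlr6 and Tlr5 were far lower, at 13.5 ± 2.90 and 13.3 ± 4.01 per kilobase, with ranges that overlapped each other and did not reach that of Tlr7. In combination tumors Tlr2 was again on top at 254 ± 57.4 per kilobase and Tlr13 next at 119 (range 93.8 to 144), while Tlr1, at 96.5 ± 11.6, stood before Tlr9 (80.1), Tlr3 (78.3) and Tlr4 (66.4). Tlr11 and Tlr12, the other mouse receptors of the family, which bind profilin of protozoa, had means over all 32 tumors of 7.11 and 48.9 per kilobase.

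**Figure D2:**
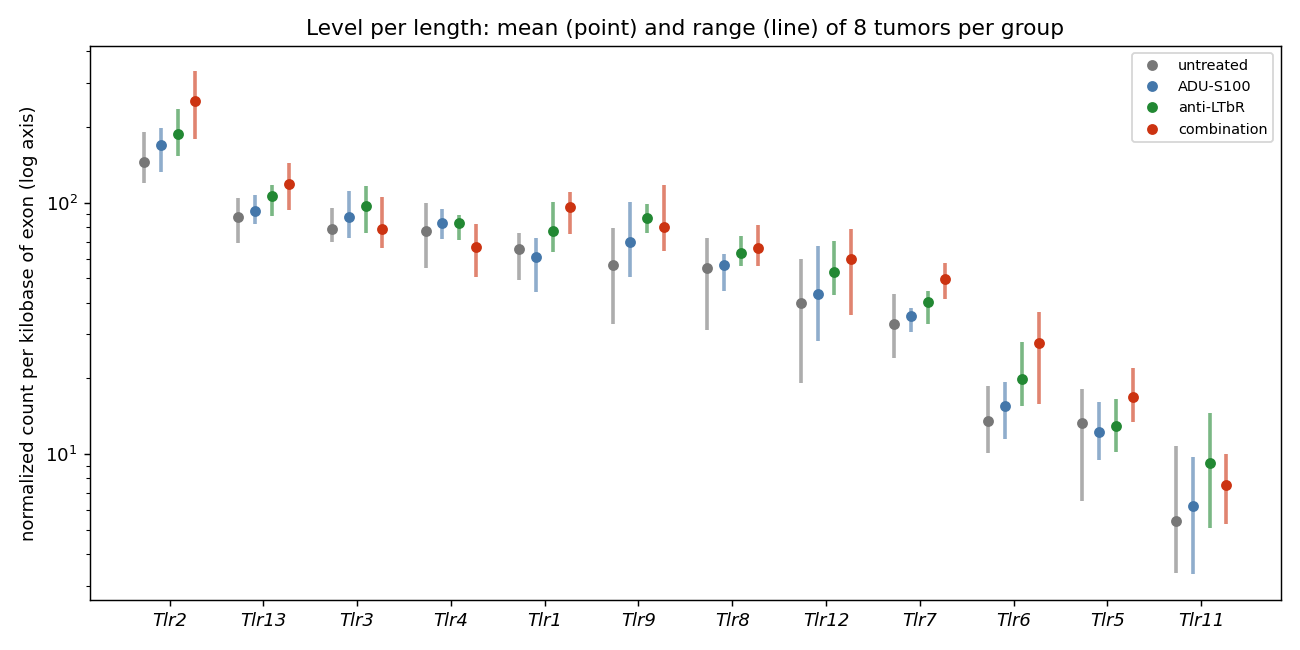
Normalized count per kilobase of exon (log axis) for the 10 genes and for Tlr11 and Tlr12, as the mean (point) and range (line) of 8 tumors per group, ordered by the untreated mean. Tlr2 led in every group, and Tlr6, Tlr5 and Tlr11 had the lowest means in every group.

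In combination against untreated tumors, 6 of the 10 receptor genes were higher (Tlr1, Tlr2, Tlr6, Tlr7, Tlr9 and Tlr13) and 0 were lower, at a false discovery rate below 0.05 in limma over 16909 genes. They held all 3 surface receptors of bacterial lipopeptides and 3 of the 5 endosomal nucleic acid receptors, without Tlr3 and Tlr8. Over all genes tested, 19.6% were higher and 23.6% were lower in the same comparison. The median log2 fold change of the 10 members was 0.48, beside -0.02 for all genes tested. All 10 passed the filter on low values here and in every other comparison. Only Tlr6 was past a change of 2-fold, with 1.01 on the log2 scale, beside 5.16% of all genes tested that were called and at least 2-fold higher. It fell below 2-fold in 9 of 16 fits that left out a single tumor (untreated tumor 4, 6, 7 or 8 or combination tumor 2, 3, 5, 6 or 7, lowest 0.945) and in tumors with over 14000000 reads (0.88), and its call held in all of these.

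Tlr2 (mm39 chr3:83743579-83749074, minus strand) encodes the shared partner of the lipopeptide receptors. It ran from 362 to 579 normalized counts in untreated tumors (median 421), from 399 to 600 with ADU-S100 (median 515), from 460 to 715 with anti-LTbR (median 545) and from 540 to 1006 with the combination (median 755). Of the 8 combination tumors, 7 lay above every untreated tumor, and the single-agent groups overlapped the untreated range. Combination against untreated gave a log2 fold change of 0.79 ± 0.13 (SE, limma adjusted p = 0.000175). Anti-LTbR alone also raised Tlr2, by 0.36 ± 0.09 (limma adjusted p = 0.0179).

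Tlr6 (mm39 chr5:65109374-65117440, minus strand) encodes the partner of TLR2 for diacylated lipopeptides. It ran from 37.7 to 69.2 normalized counts in untreated tumors (median 49.4), from 43.0 to 72.4 with ADU-S100 (median 58.0), from 57.8 to 104 with anti-LTbR (median 73.7) and from 58.8 to 138 with the combination (median 107). All combination tumors but tumor 4 lay above every untreated tumor. Against untreated tumors the log2 fold change was 1.01 ± 0.16 with the combination (limma adjusted p = 0.000182) and 0.55 ± 0.15 with anti-LTbR (limma adjusted p = 0.0216).

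Tlr1 (mm39 chr5:65082022-65090906, minus strand), for the partner of TLR2 in sensing triacylated lipopeptides, lies 18467 bases from Tlr6. Its values were 166 to 255 normalized counts in untreated tumors (median 224), 147 to 243 with ADU-S100 (median 206), 213 to 338 with anti-LTbR (median 256) and 250 to 368 with the combination (median 326). Again 7 tumors of the combination group exceeded the whole untreated range, and all 8 exceeded the ADU-S100 range. For the combination the log2 fold change was 0.56 ± 0.09 against untreated (limma adjusted p = 0.000191) and 0.67 ± 0.10 against ADU-S100 (limma adjusted p = 9.31e-05). With anti-LTbR alone it was 0.25 ± 0.10 and was not called (limma adjusted p = 0.0846).

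Tlr1 and Tlr6 are near-identical over part of their coding sequence, and reads from there could be split between them in counting. Their coding sequences, of 2385 and 2418 bases, shared 9 exact runs of at least 31 bases, together 36.6% of Tlr1 and 36.1% of Tlr6, and 11.3% of the 100-base windows of Tlr1 also stood in Tlr6. The values of the 2 genes are therefore uncertain, to an extent that was not measured. The longest run, of 229 bases, is shown because a read pair that lies wholly inside it cannot be told apart between them. It lies at chr5:64925537-64925765 in Tlr1 and at chr5:64953828-64954056 in Tlr6 (GRCm38, minus strand, coding bases 1468 to 1696 and 1507 to 1735 of the GENCODE transcripts).
Tlr1 and Tlr6 shared coding run: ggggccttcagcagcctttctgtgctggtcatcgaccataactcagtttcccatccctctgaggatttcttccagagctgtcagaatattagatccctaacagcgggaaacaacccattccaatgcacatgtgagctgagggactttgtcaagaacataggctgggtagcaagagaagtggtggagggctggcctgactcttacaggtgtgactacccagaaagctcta

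The promoter windows of RefSeq (GRCm38.p6, 250 bases before the start site and 50 from it on) were read for 8 of the 10 members, in 10 windows, and 4 motifs were searched on both strands. The motifs were the interferon-stimulated response element (GAAA, then any pair of bases, then GAAA), the GAS element TTCNNNGAA, the PU.1 core GAGGAA and a single form of the NF-κB site (GGGA, any base, TTTCC). They stood in 3.43%, 8.29%, 28.3% and 0.411% of 32817 mouse windows, respectively. Among the 10 member windows, 1 held the response element, 3 the GAS element, 4 the PU.1 core and 1 that form of the NF-κB site. A match is a description of letters, not of binding. The windows are shown for the 3 lipopeptide receptors, which were higher together in combination tumors, with every match in capitals. The Tlr6 window upstream (chr5:64959999-64960298, minus strand) held GAS letters at bases -3 to 5 and 7 to 15 counted from the start site as 0, and the downstream Tlr6 window (chr5:64959117-64959416, minus strand) held 2 overlapping response elements at -116 to -107 and -110 to -101. The upstream Tlr1 window (chr5:64933509-64933808, minus strand) held a PU.1 core at -23 to -18, and the downstream Tlr1 window (chr5:64932650-64932949, minus strand) held GAS letters at -228 to -220. The Tlr2 window (chr3:83841559-83841858, minus strand) held none of the 4 patterns. Other spellings of an NF-κB site, such as the GGGAATTCCC in this window, were not searched.
Tlr6 upstream window: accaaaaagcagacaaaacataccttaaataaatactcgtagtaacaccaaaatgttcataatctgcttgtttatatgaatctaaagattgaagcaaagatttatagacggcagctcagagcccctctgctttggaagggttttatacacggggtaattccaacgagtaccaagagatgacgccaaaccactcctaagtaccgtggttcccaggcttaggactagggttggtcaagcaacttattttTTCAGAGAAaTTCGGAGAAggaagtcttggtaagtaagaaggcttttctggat
Tlr6 downstream window: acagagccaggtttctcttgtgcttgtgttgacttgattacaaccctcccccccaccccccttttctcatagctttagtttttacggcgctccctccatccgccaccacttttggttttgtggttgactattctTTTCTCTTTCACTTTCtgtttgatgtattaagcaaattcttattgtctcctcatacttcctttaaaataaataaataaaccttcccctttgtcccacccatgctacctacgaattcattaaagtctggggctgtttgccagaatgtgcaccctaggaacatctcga
Tlr1 upstream window: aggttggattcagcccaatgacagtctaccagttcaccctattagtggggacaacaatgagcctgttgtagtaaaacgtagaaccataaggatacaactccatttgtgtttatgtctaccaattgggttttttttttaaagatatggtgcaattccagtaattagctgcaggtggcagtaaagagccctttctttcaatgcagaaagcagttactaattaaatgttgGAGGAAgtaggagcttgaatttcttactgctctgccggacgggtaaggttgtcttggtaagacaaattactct
Tlr1 downstream window: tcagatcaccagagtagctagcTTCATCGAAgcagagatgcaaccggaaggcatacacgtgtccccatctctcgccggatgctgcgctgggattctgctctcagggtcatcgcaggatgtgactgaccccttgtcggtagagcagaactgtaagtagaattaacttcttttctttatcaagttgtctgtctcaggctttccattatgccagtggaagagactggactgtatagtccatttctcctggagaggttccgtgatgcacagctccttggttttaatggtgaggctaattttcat
Tlr2 window: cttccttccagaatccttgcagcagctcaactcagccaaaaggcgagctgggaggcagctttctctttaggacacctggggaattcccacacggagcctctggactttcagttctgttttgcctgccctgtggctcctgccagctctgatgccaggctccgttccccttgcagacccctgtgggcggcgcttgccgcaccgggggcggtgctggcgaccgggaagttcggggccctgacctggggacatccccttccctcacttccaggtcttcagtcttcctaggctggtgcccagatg

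Tlr4 (mm39 chr4:66745821-66848521, plus strand) encodes the lipopolysaccharide receptor. It ran from 305 to 553 normalized counts in untreated tumors (median 447), from 400 to 525 with ADU-S100 (median 468), from 396 to 494 with anti-LTbR (median 477) and from 282 to 457 with the combination (median 366). The combination range overlapped that of each other group, and 6 of its 8 tumors lay below every ADU-S100 tumor. It was lower in combination than in ADU-S100 tumors by a log2 fold change of -0.34 ± 0.09 (limma adjusted p = 0.00797) and than in anti-LTbR tumors by -0.33 ± 0.09 (limma adjusted p = 0.0128). Against untreated tumors the value was -0.22 ± 0.12 (limma adjusted p = 0.145). Without untreated tumor 4, the lowest of its group, that value was -0.28 with an adjusted p of 0.0414.

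Tlr5 (mm39 chr1:182782353-182804010, plus strand), the flagellin receptor gene, was low throughout, with 31.1 to 86.8 normalized counts in untreated tumors (median 67.1), 45.4 to 77.3 with ADU-S100 (median 56.1), 49.0 to 79.2 with anti-LTbR (median 60.1) and 64.4 to 106 with the combination (median 77.7). The 4 ranges overlapped. The log2 fold change of the combination against untreated was 0.38, with a 95% interval from -0.01 to 0.78 (limma adjusted p = 0.107), and it was 0.46 ± 0.14 against ADU-S100 (limma adjusted p = 0.0103). In tumors with over 14000000 reads the latter was 0.41 and was not called (adjusted p 0.0581).

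**Figure D3:**
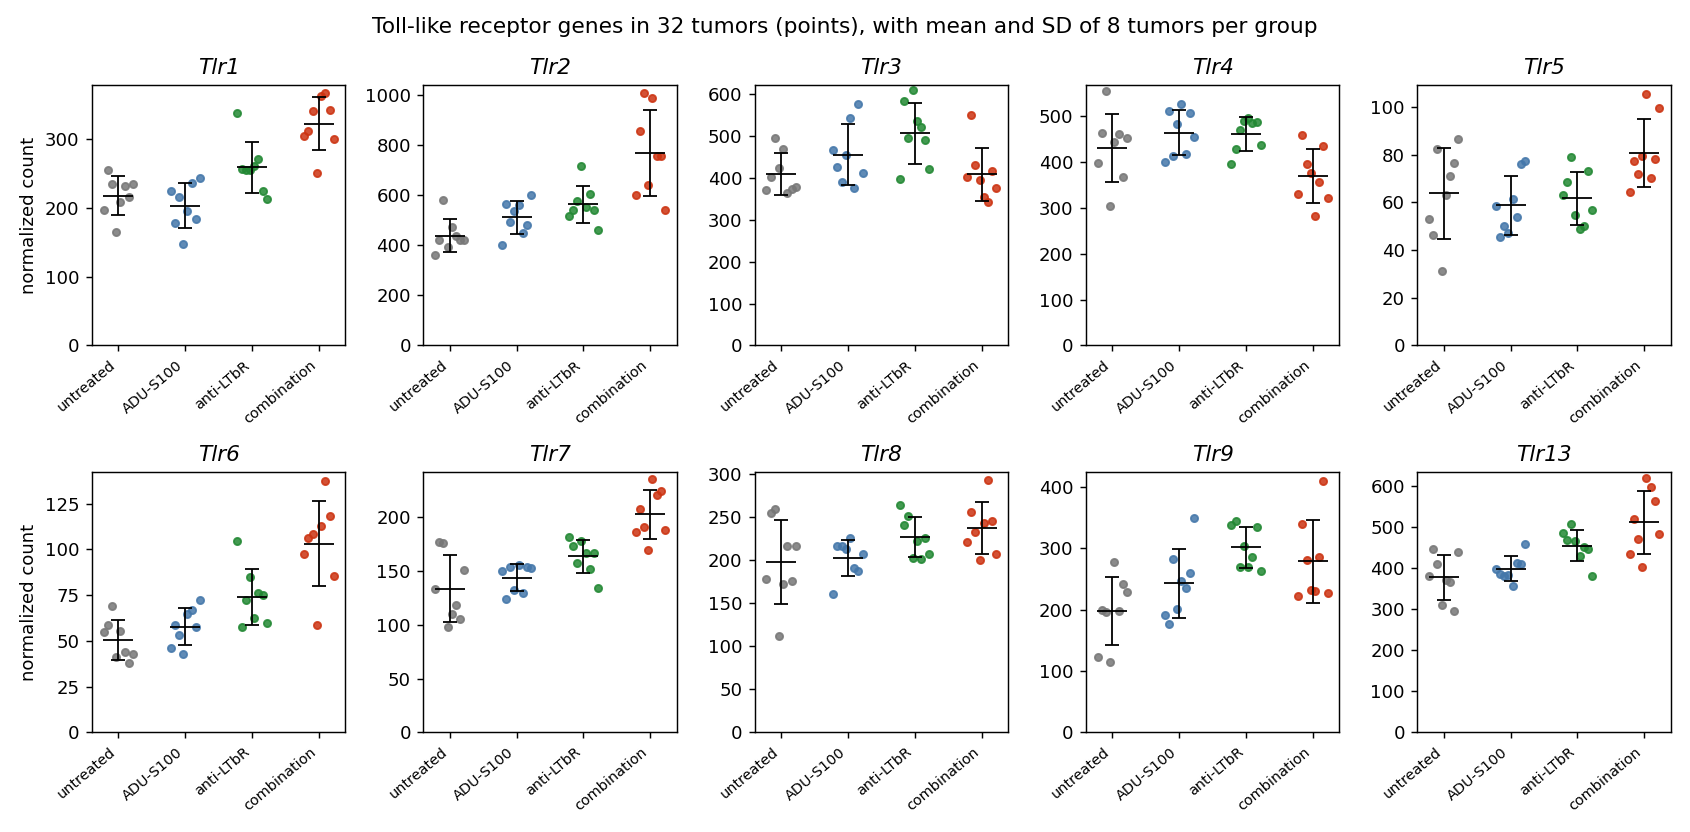
Normalized counts of the 10 receptor genes in each of 32 tumors (points), with the mean and SD of 8 tumors per group (bars). The combination group had the highest mean of the 4 for Tlr1, Tlr2, Tlr5, Tlr6, Tlr7, Tlr8 and Tlr13 and the lowest for Tlr3, where it was near the untreated mean (408 and 409), and Tlr4.

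Among the endosomal receptors, Tlr7, Tlr9 and Tlr13 were higher in the combination group, while Tlr3 and Tlr8 were not called. Tlr3 (mm39 chr8:45848702-45864117, minus strand) encodes the sensor of double-stranded RNA. It ran from 363 to 495 normalized counts in untreated tumors (median 390), from 375 to 577 with ADU-S100 (median 440), from 396 to 608 with anti-LTbR (median 508) and from 343 to 549 with the combination (median 398). The ranges of all groups overlapped, and 4 of 8 combination tumors lay below every anti-LTbR tumor. Its log2 fold change was 0.30 ± 0.09 for anti-LTbR against untreated (limma adjusted p = 0.0366), -0.31 ± 0.10 for combination against anti-LTbR (limma adjusted p = 0.0312) and -0.01, with a 95% interval from -0.21 to 0.19, for combination against untreated (limma adjusted p = 0.940). The first call was lost in 12 and the second in 6 of 16 fits that left out a single tumor (adjusted p up to 0.0722 and 0.0645). Its promoter window (chr8:45410331-45410630, GRCm38.p6, minus strand) is shown because, of the 10 member windows, it was the only one with the searched NF-κB letters, at -211 to -202, in capitals.
Tlr3 window: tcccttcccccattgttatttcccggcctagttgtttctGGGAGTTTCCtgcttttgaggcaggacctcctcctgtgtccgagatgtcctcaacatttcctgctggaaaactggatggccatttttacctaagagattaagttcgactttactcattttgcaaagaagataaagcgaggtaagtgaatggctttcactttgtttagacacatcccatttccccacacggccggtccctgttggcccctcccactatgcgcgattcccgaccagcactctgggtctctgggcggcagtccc

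Tlr7 (mm39 chrX:166087925-166113554, minus strand) encodes a sensor of single-stranded RNA. It ran from 98.4 to 177 normalized counts in untreated tumors (median 126), from 124 to 156 with ADU-S100 (median 151), from 135 to 182 with anti-LTbR (median 167) and from 170 to 236 with the combination (median 200). The combination group stood apart from the ADU-S100 group without overlap, and 7 of its 8 tumors lay above every untreated and 7 above every anti-LTbR tumor. The log2 fold change of the combination was 0.62 ± 0.13 against untreated (limma adjusted p = 0.000943), 0.49 ± 0.08 against ADU-S100 (limma adjusted p = 0.000122) and 0.31 ± 0.08 against anti-LTbR (limma adjusted p = 0.0101).

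Tlr8 (mm39 chrX:166025692-166047325, minus strand), its neighbor 40599 bases away, encodes another RNA sensor. Its values were 111 to 259 normalized counts in untreated tumors (median 197), 160 to 225 with ADU-S100 (median 210), 201 to 263 with anti-LTbR (median 224) and 200 to 293 with the combination (median 237). The groups overlapped. The log2 fold change of the combination was 0.29 against untreated, with a 95% interval from -0.01 to 0.60 (limma adjusted p = 0.108), and 0.23 ± 0.08 against ADU-S100 (limma adjusted p = 0.0361). The joint fit of all groups called the first (adjusted p 0.0388) and not the second (0.114), and in tumors with over 14000000 reads the second was 0.10 (adjusted p 0.289).

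Tlr9 (mm39 chr9:106099797-106104082, plus strand) encodes the sensor of unmethylated CpG DNA. It ran from 114 to 277 normalized counts in untreated tumors (median 198), from 177 to 350 with ADU-S100 (median 241), from 263 to 345 with anti-LTbR (median 295) and from 223 to 410 with the combination (median 256). Anti-LTbR gave the highest group median of the 4, and 5 of its 8 tumors lay above every untreated tumor. Tlr9 rose with anti-LTbR by 0.66 ± 0.16 (log2 fold change, limma adjusted p = 0.0134) and with the combination by 0.52 ± 0.18 (limma adjusted p = 0.0295). The combination call was lost without untreated tumor 1 or 4 or combination tumor 2 or 7, with log2 fold changes from 0.42 to 0.47 and adjusted p from 0.0552 to 0.0621. It was also lost in tumors with over 14000000 reads (0.56, adjusted p 0.0650).

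Tlr13 (mm39 chrX:105186810-105204099, plus strand) encodes a mouse sensor of bacterial ribosomal RNA. It ran from 297 to 446 normalized counts in untreated tumors (median 376), from 356 to 460 with ADU-S100 (median 393), from 382 to 508 with anti-LTbR (median 460) and from 404 to 620 with the combination (median 501). Of 8 tumors each, 6 of the combination group and 6 of the anti-LTbR group lay above every untreated tumor. The log2 fold change against untreated was 0.44 ± 0.10 with the combination (limma adjusted p = 0.00289) and 0.28 ± 0.08 with anti-LTbR (limma adjusted p = 0.0362).

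Single tumors were at the edge of their group for several receptors at once. Untreated tumor 4 had the lowest value of its group for 6 of the 10 genes, and combination tumor 4 and anti-LTbR tumor 8 for 5 each. ADU-S100 tumor 8 had the highest for 6 and untreated tumor 3 for 5. Receptor values of a tumor are thus not independent of each other, and the count of called genes is not a count of separate observations. After the group means were subtracted, the pair that varied most alike over the 32 tumors was Tlr7 and Tlr13 (Pearson r = 0.75), and the pair least alike was Tlr1 and Tlr3 (r = -0.25). These are descriptions over tumors that share their libraries.

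The anti-LTbR antibody alone was set against untreated tumors to see what the lymphotoxin β receptor agonist did by itself. Of the 10 genes, 5 were higher (Tlr2, Tlr3, Tlr6, Tlr9 and Tlr13) and 0 were lower, beside 7.21% higher and 8.10% lower of 16691 genes tested. Their changes ran from 0.28 for Tlr13 to 0.66 for Tlr9 on the log2 scale. The median over the 10 members was 0.29, beside 0.00300 for all genes tested. The calls of Tlr3 and Tlr13 were close to the threshold. Tlr3 was no longer called without untreated tumor 1, 2, 4, 6, 7 or 8 or without anti-LTbR tumor 2, 3, 4, 5, 6 or 7 (log2 fold change 0.26 to 0.31, adjusted p 0.0509 to 0.0722). Tlr13 was no longer called without untreated tumor 1, 4, 6 or 7 or anti-LTbR tumor 1, 2, 3, 4, 6 or 7 (0.23 to 0.28, adjusted p 0.0510 to 0.0700). Without a filter on low values neither was called (adjusted p 0.0511 and 0.0513), and Tlr3 was not called in tumors with over 14000000 reads (0.0730). With the replicate number as a block Tlr13 was not called (0.0655). Tlr7 became called without untreated tumor 2 or 3 (0.38, adjusted p 0.0384 and 0.0426) and in the joint fit of all groups (adjusted p 0.0307). Ptprc was also higher in this comparison, by 0.37 ± 0.09 (limma adjusted p = 0.0139). Higher as well were 3 of 6 macrophage, 2 of 6 conventional dendritic cell and 2 of 4 T cell markers. The same held for 1 of 5 B cell, 1 of 4 monocyte and 1 of 4 endothelial markers. Lower were 3 of 4 mast cell and 3 of 5 epithelial markers. No other listed marker was called, and the part of these shifts was not tested.

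ADU-S100 alone, sampled 14 days after its single injection, left no receptor called. In limma 0 of 16613 genes passed the threshold, and 2408 had an unadjusted p under 0.05. Tlr2 was the only member among these, with 0.22 ± 0.10 (log2 fold change, limma adjusted p = 0.322). The other members had log2 fold changes from -0.11 for Tlr1 to 0.32 for Tlr9, and the widest 95% interval, that of Tlr5, ran from -0.49 to 0.33. DESeq2 on recovered reads called 28 genes higher and 11 lower, but it gave an adjusted p to 5241 of 15378 genes only and to none of the 10 members, so it holds no call for them.

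**Figure D4:**
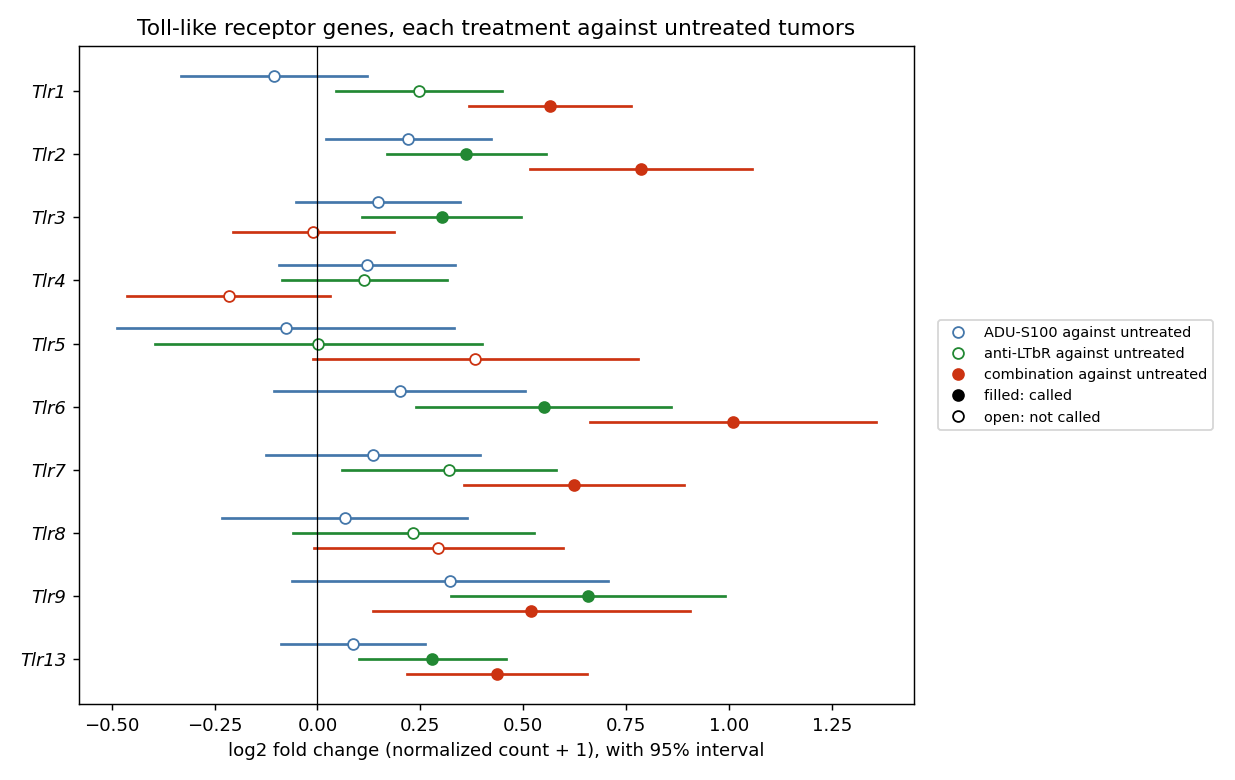
Log2 fold change of each receptor gene against untreated tumors, with its 95% interval, for ADU-S100, anti-LTbR and the combination (8 tumors per group). Filled points passed the false discovery rate of 0.05, and they number 0, 5 and 6, respectively. The 3 comparisons share the untreated tumors.

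The combination was set against each agent alone to find what the second agent added. Against anti-LTbR tumors, 5 members were higher (Tlr1, Tlr2, Tlr5, Tlr6 and Tlr7) and 2 were lower (Tlr3 and Tlr4), beside 11.3% higher and 15.3% lower of 16932 genes tested. The lipopeptide receptors rose by 0.42 ± 0.12 (Tlr2, limma adjusted p = 0.0197), 0.46 ± 0.16 (Tlr6, limma adjusted p = 0.0408) and 0.32 ± 0.09 (Tlr1, limma adjusted p = 0.0184) on the log2 scale, and Tlr5 by 0.38 ± 0.13 (limma adjusted p = 0.0347). The median over the members was 0.23, beside -0.03 for all genes tested. Of the calls over all genes, 53.8% were higher in edgeR (whole reads, RLE scaling) rather than 42.6%, and the 7 member calls held with their direction. None held when the fit was kept to the 12 tumors with over 14000000 reads, 6 in each group (adjusted p 0.106 to 0.354). There Tlr3 had -0.27, Tlr4 -0.26, Tlr1 0.21, Tlr2 0.31, Tlr5 0.28 and Tlr7 0.21, and Tlr6, at 0.27, was lower by the widest ratio. Tlr6 was no longer called without anti-LTbR tumor 2, 3, 5, 6, 7 or 8 or combination tumor 1, 2, 3, 5, 6 or 7 (0.40 to 0.47, adjusted p 0.0537 to 0.0823), Tlr5 without anti-LTbR tumor 4, 5, 6 or 8 or combination tumor 5 or 8 (0.32 to 0.37, adjusted p 0.0613 to 0.0710), and Tlr3 without anti-LTbR tumor 2, 4, 5 or 6 or combination tumor 5 or 6 (-0.30 to -0.27, adjusted p 0.0501 to 0.0645). Without a filter on low values Tlr5 and Tlr6 were not called (adjusted p 0.0540 and 0.0588), nor was Tlr5 in the joint fit of all groups (0.0932). With the replicate number as a block Tlr5 and Tlr6 were not called (0.0775 and 0.0640). In this comparison 4 of 4 fibroblast, 4 of 4 endothelial and 3 of 6 macrophage markers were higher. So were 1 of 4 monocyte, 1 of 6 neutrophil and 1 of 4 mast cell markers, and 3 of 5 epithelial markers were lower. Ptprc was not called (0.22 ± 0.08, limma adjusted p = 0.0626), nor was any other listed marker. The part of these shifts was not tested.

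Against ADU-S100 tumors, 7 members were higher in the combination group (Tlr1, Tlr2, Tlr5, Tlr6, Tlr7, Tlr8 and Tlr13) and Tlr4 was lower, beside 20.2% higher and 26.0% lower of 16811 genes tested. Tlr6 showed the widest difference, 0.81 ± 0.16 on the log2 scale (limma adjusted p = 0.000518), and Tlr2 differed by 0.57 ± 0.13 (limma adjusted p = 0.00162). The median over the members was 0.41, beside -0.02 for all genes tested. The Tlr8 call was lost without ADU-S100 tumor 1, 6 or 7 or combination tumor 2, 3, 5, 6 or 7 (0.18 to 0.23, adjusted p 0.0502 to 0.0714). It was also lost without a filter on low values (adjusted p 0.0521). Between the single agents no member passed the threshold in limma, beside 3.38% higher and 3.04% lower in anti-LTbR of 16649 genes, although 6 members had an unadjusted p under 0.05. The nearest was Tlr1, at 0.35 ± 0.11 (limma adjusted p = 0.0546). DESeq2 called 2 of the 10, Tlr1 and Tlr13, as did the fit of tumors with over 14000000 reads.

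The interaction term, fitted over all 32 tumors, asked whether ADU-S100 went with a different change in the presence of anti-LTbR than in its absence. For 3 members it did. Tlr1 had a positive term of 0.42 ± 0.14 (limma adjusted p = 0.0359), while Tlr3 had -0.46 ± 0.14 (limma adjusted p = 0.0220) and Tlr4 -0.45 ± 0.14 (limma adjusted p = 0.0214). Over 17649 genes tested, 7.33% had a positive and 11.0% a negative term at the same threshold, and 51.3% of the calls were positive rather than 39.9% in edgeR (whole reads, RLE scaling), with the 3 member calls kept. With ADU-S100, Tlr3 differed by 0.15 without the antibody and by -0.31 with it, and Tlr4 by 0.12 and by -0.33. Tlr1 differed by -0.11 without it and by 0.32 with it. For Tlr9 the term was of like size, -0.46, but wider in error (SE 0.22, limma adjusted p = 0.153). The Tlr1 call was lost without untreated tumor 2, 3 or 8, ADU-S100 tumor 2 or 4, anti-LTbR tumor 7 or 8, or combination tumor 3, 5 or 6 (0.36 to 0.41, adjusted p 0.0501 to 0.0627), and without a filter on low values (adjusted p 0.0512). Tlr5 became called without untreated tumor 4 (0.59, adjusted p 0.0397). In the fewer tumors with over 14000000 reads, none of the 3 terms was called, while their size was 0.37 for Tlr1 (adjusted p 0.144), -0.43 for Tlr3 (0.0853) and -0.45 for Tlr4 (0.0640).

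**Figure D5:**
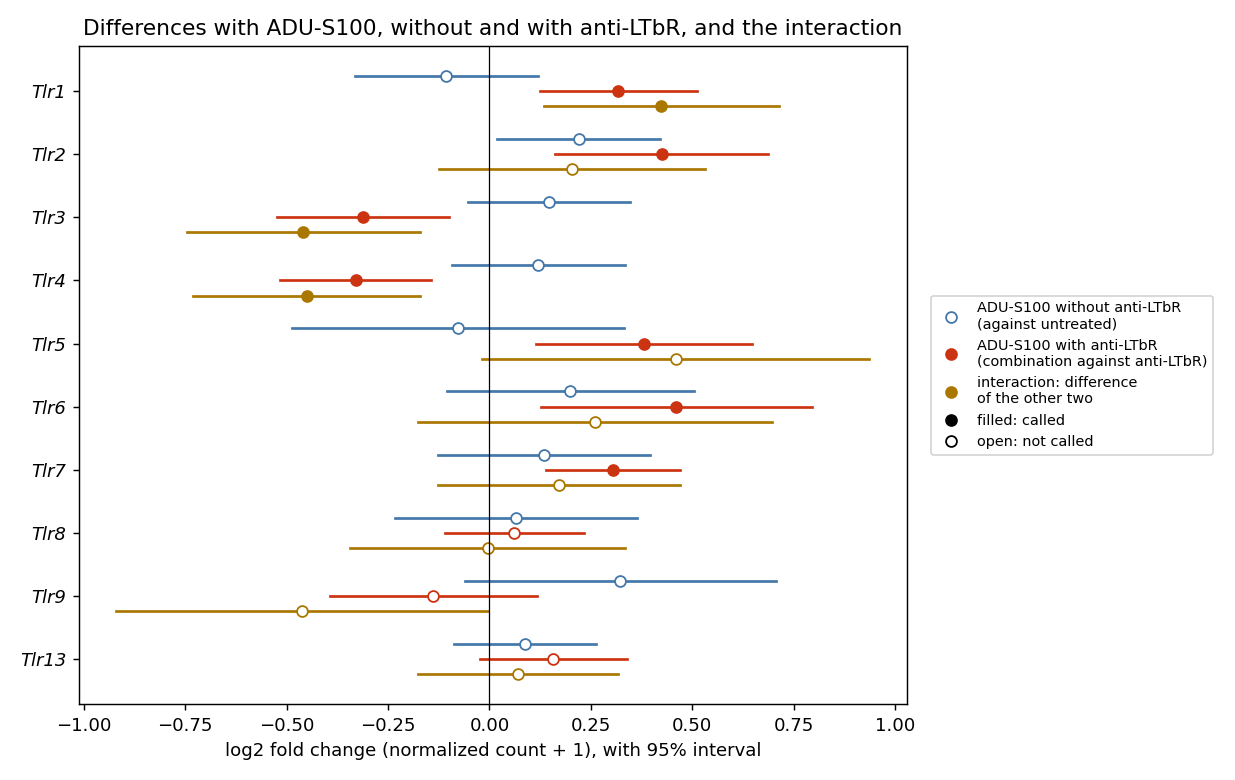
Log2 fold changes with 95% intervals for ADU-S100 without anti-LTbR (against untreated) and with it (combination against anti-LTbR), and the interaction term, which is the second less the first. Filled points passed the false discovery rate of 0.05, and the terms of Tlr1 (0.42), Tlr3 (-0.46) and Tlr4 (-0.45) are among them.

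Since leukocyte markers moved with the groups, each receptor was also expressed as a percentage of Ptprc in the same tumor, as a description. Tlr1 came to 13.1% ± 0.907 of Ptprc (SD, n = 8) in untreated and 12.9% ± 0.899 in combination tumors, and Tlr7 to 8.02% ± 1.65 and 8.12% ± 0.634. On that scale these groups lay on top of each other. Tlr6 stood at 3.05% ± 0.703 and 4.07% ± 0.573 and Tlr2 at 26.4% ± 3.33 and 30.6% ± 5.99, with overlapping ranges. Tlr4 ran from 21.8% to 30.8% of Ptprc in untreated and from 11.2% to 18.7% in combination tumors, without overlap, and Tlr3 from 19.9% to 32.3% and from 12.1% to 21.0%. The means of the other 4 were lower in combination tumors, with overlapping ranges. Tlr13 had 22.8% ± 3.22 in untreated and 20.4% ± 2.02 in combination tumors, Tlr9 11.6% ± 2.42 and 11.0% ± 1.67, Tlr8 11.7% ± 2.10 and 9.46% ± 0.672, and Tlr5 3.77% ± 0.888 and 3.27% ± 0.759. Tlr9 and Tlr13 were thus among the genes called higher on normalized counts and had lower means per Ptprc. Of the 5 genes called with anti-LTbR alone, Tlr2 came to 26.4% of Ptprc in untreated and 26.3% in anti-LTbR tumors. In the same order, Tlr3 came to 24.8% and 23.8%, Tlr13 to 22.8% and 21.3%, Tlr6 to 3.05% and 3.42%, and Tlr9 to 11.6% and 14.1%. The ranges of these 2 groups overlapped for each of them. Against the summed macrophage markers, Tlr2 was 3.28% ± 0.487 in untreated and 4.23% ± 0.523 in combination tumors, Tlr6 0.373% ± 0.0513 and 0.571% ± 0.0900, and Tlr4 3.20% ± 0.416 and 2.08% ± 0.392. Tlr3 was 3.08% and 2.31%, and the means of the other 6 lay closer together in ratio, from 0.986% and 1.14% for Tlr7 to 1.46% and 1.32% for Tlr8.

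Of 14 accessory proteins of the receptors, 2 were higher and 3 were lower in combination than in untreated tumors, with a median log2 fold change of -0.01. These counts, and those of the lists that follow, stand beside the 19.6% higher and 23.6% lower of all genes tested, and a share near these says nothing particular about a list. The higher genes were Unc93b1, the chaperone that carries nucleic acid receptors to endosomes (0.63 ± 0.13, limma adjusted p = 0.00109), and Cd180, an LPS receptor homolog of B cells and myeloid cells (0.58 ± 0.13, limma adjusted p = 0.00222). Unc93b1 ran from 1486 to 2166 normalized counts in untreated and from 1887 to 3461 in combination tumors, with overlap. The lower genes were Tmed7 (-0.22, limma adjusted p = 0.00146), a trafficking factor of TLR4, Slc15a4 (-0.24, limma adjusted p = 0.00229), a lysosomal transporter needed for TLR7 and TLR9 responses, and Lrrc59 (-0.13, limma adjusted p = 0.0308), which binds nucleic acid receptors on their way from the endoplasmic reticulum. Of the endolysosomal proteases that trim the nucleic acid receptors, 4 of 5 rose and 0 fell, with a median of 0.51. These were Ctsk (1.09 ± 0.23, limma adjusted p = 0.00121), Ctss (0.64 ± 0.15, limma adjusted p = 0.00230), Ctsb (0.51 ± 0.10, limma adjusted p = 0.000924) and Lgmn (0.27 ± 0.09, limma adjusted p = 0.0215), while Ctsl had -0.20 (limma adjusted p = 0.0574). Ctsk and Ctsb are not particular to leukocytes, and the fibroblast markers above moved in the same comparison. Their part was not tested.

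Downstream, 7 of 20 adaptors and proximal kinases were higher and 2 were lower in combination tumors, with a median of 0.04. Ikbke, an interferon-inducing kinase, had 0.55 ± 0.10 (limma adjusted p = 0.000543), Ticam2, the TRIF-related adaptor of TLR4, 0.89 ± 0.20 (limma adjusted p = 0.00187), Tbk1 0.20 ± 0.05 (limma adjusted p = 0.00287) and Peli1, a ubiquitin ligase, 0.23 ± 0.05 (limma adjusted p = 0.00292), whereas Tirap, the bridging adaptor of TLR2 and TLR4, fell by 0.30 (limma adjusted p = 0.00171). Ticam2 is a low gene, averaging 63.3 normalized counts without treatment and 119 after the combination. Among 10 of 11 inhibitors tested, 5 were higher and 3 were lower (median 0.20). The decoy kinase Irak3 rose by 0.75 ± 0.14 (limma adjusted p = 0.000591), Socs1 by 0.69 ± 0.15 (limma adjusted p = 0.00144) and Tnfaip3, which encodes A20, by 0.46 ± 0.09 (limma adjusted p = 0.000735). Sigirr, an inhibitory receptor abundant in epithelium, fell by 0.46 (limma adjusted p = 0.000574) and Tollip by 0.20 (limma adjusted p = 0.00241). Of 5 epithelial markers, Krt8, Krt18 and Krt19 were lower in the same comparison, and Epcam (0.56, limma adjusted p = 0.309) and Cdh1 (-0.27, limma adjusted p = 0.618) were not called. Their part was not tested.

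Of 8 transcription factors, 2 were higher and 3 were lower (median -0.10). Irf5, which acts after MyD88 in macrophages, had 0.45 ± 0.10 (limma adjusted p = 0.00162) and Rel 0.37 ± 0.09 (limma adjusted p = 0.00241), while Nfkb1 had -0.18 (limma adjusted p = 0.0109), Fos -0.31 (limma adjusted p = 0.0218) and Rela -0.14 (limma adjusted p = 0.0281). Of 13 output genes 11 could be tested, and 5 were higher and 0 lower (median 0.51). They were the cytokine Tnf (1.29 ± 0.21, limma adjusted p = 0.000214) and the chemokines Ccl5 (1.80 ± 0.34, limma adjusted p = 0.000510), Cxcl9 (0.91 ± 0.17, limma adjusted p = 0.000615), Cxcl10 (0.77 ± 0.22, limma adjusted p = 0.00955) and Ccl4 (0.51 ± 0.19, limma adjusted p = 0.0352). Tnf ran from 48.1 to 108 normalized counts in untreated and from 106 to 350 in combination tumors, which left a narrow overlap. These genes also respond to other signals, interferons among them.

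The genes whose tumor-to-tumor variation was most like that of a receptor, after group means were removed, were read out over 32 tumors and 13486 genes. The 3 closest are given for each receptor. Tlr1 went most with Ptprc (r = 0.83), Grk3 (0.81) and Otulinl (0.81), Tlr2 with Il21r (0.85), Ctsc (0.83) and Vcam1 (0.83), and Tlr6 with Gimap6 (0.81), the myeloid factor gene Spi1 (0.80) and Slamf6 (0.79). Tlr7 went with Lpxn (0.78), the microglia and macrophage marker P2ry12 (0.77) and Sash3 (0.77), Tlr8 with Gimap8 (0.78), Sash3 (0.75) and Prex1 (0.75), and Tlr13 with Was (0.82), Myo1f (0.82) and Lcp2 (0.81), genes known from blood cells. Tlr3 was closest to Slfn9 (0.88), Tor1aip1 (0.80) and H2-T24 (0.80), and Tlr4 to Vwa5a (0.79), Clic4 (0.79) and Zfp367 (0.74). Tlr9 was closest to Usf3 (0.83), Sema4d (0.81) and Gvin3 (0.80), and Tlr5 to Il6ra (0.79), Phlpp2 (0.75) and Tram2 (0.73). The values share libraries and normalization and are descriptions.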

How the data were processed

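Poly(A) RNA of individual mouse tumors was sequenced with a dUTP strand-marking protocol. Per the labels and the study's methods, the authors trimmed reads with cutadapt 1.9, mapped them with HISAT2 and assembled with StringTie, while STAR in Partek is also named, and which of them made the table used is not settled in the sources used here. Its coordinates are mm39. The values the authors deposited are a signal: the reads of each gene over the size factor of its library. A wider deposited table of 52 libraries held a signal of the same kind, from which whole reads were recovered (100% of values whole within 0.1) for the depth and the count models. The authors' own gene set enrichment scores and p-values were deposited too and were not used. Unused per-sample columns number 0.

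For each comparison its own 16 libraries were fitted with the trend method of limma 3.58.1 in R 4.3.3, on log2(normalized count + 1). Low genes were removed by filterByExpr (edgeR 4.0.16, minimum count 10). On this scale the fold change of a low gene is understated. The interaction used all 32 libraries. Benjamini-Hochberg adjustment ran over all genes tested, and a gene was called at a false discovery rate below 0.05. The model code was tested on simulated data. For combination against untreated, it recovered 107 of 198 genes changed by 0.6 and 167 of 196 changed by 1.5 on the log2 scale. A receptor that was not called may thus still differ. Alternatives were edgeR and DESeq2 1.42.0 on recovered reads, pseudocounts of 0.5 and 0.1, other filters on low values, a replicate block, a joint fit, only libraries above 14000000 reads, a 2-fold rule, and leaving out each library in turn, which was added after seeing the data. Exon lengths for levels per kilobase came from GENCODE vM21 (GRCm38), and promoter windows from RefSeq (GRCm38.p6).

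The members, gene lists and tests were chosen with earlier results of these data known. All 10 members are named, Tlr11 and Tlr12 with their level, from each pathway list at most 5 genes with the smallest adjusted p in combination against untreated tumors, and for each member the 3 genes with the highest residual correlation among those with a mean of at least 50. A further 20 libraries, labelled ST#15, carry labels that contradict each other and enter no comparison of treatments.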

Additional observations from a re-analysis of the deposited data

Results flagged for a closer look

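Of 40 groups of 8 tumors, each 1 gene in 1 group, 2 held a tumor whose gap to the next was, as a share of the group's range, above the 95% critical value of Dixon's ratio. Chance alone gives about 2 such groups of 40. For Tlr1, anti-LTbR tumor 1 stood at 338 normalized counts and the next tumor at 271. For Tlr3, combination tumor 2 stood at 549 and the next at 431. Without that anti-LTbR tumor, Tlr1 had log2 fold changes of 0.19 in anti-LTbR against untreated (limma adjusted p = 0.138) and 0.37 in combination against anti-LTbR (limma adjusted p = 0.00454). Without that combination tumor, Tlr3 had -0.37 in combination against anti-LTbR (limma adjusted p = 0.00547), -0.22 against ADU-S100 (limma adjusted p = 0.0572) and -0.07 against untreated (limma adjusted p = 0.467). No call changed in these fits.

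The change with ADU-S100 differed between tumors with and without anti-LTbR for 3 genes by the interaction term of limma. The terms were 0.42 for Tlr1, -0.46 for Tlr3 and -0.45 for Tlr4 on the log2 scale, beside 7.33% positive and 11.0% negative terms called over all genes. In tumors with over 14000000 reads none was called (0.37, -0.43 and -0.45, adjusted p 0.144, 0.0853 and 0.0640), and the Tlr1 call was lost in 10 of 32 fits that left out a single tumor. Without anti-LTbR tumor 1 the Tlr1 term was 0.48 (limma adjusted p = 0.0147), and without combination tumor 2 the Tlr3 term was -0.52 (limma adjusted p = 0.00560). Among the markers, the term was called, and positive, for 4 of 4 of fibroblasts, 3 of 4 of endothelium and 2 of 4 of mast cells. The same held for 1 of 3 natural killer cell, 1 of 6 macrophage and 1 of 5 epithelial markers. No other listed marker was called, and Ptprc had 0.08. The part of these markers in the receptor terms was not tested.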

How the results depend on the processing

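Of 750 values recomputed for single genes, 701 kept their direction and side of the threshold, 26 lost the call, 6 gained one and 17 changed sign. No gene whose sign changed was called in either fit. Tlr3 in combination against untreated went from -0.010 to 0.0078, 0.0041 and 0.015 (edgeR with RLE, TMM and library totals), 0.0083 (DESeq2) and 0.038 (deep libraries, above 14000000 reads). Tlr5 in anti-LTbR against untreated went from 0.0021 to -0.048, -0.049, -0.040 and -0.047 (edgeR with RLE, TMM and library totals, and DESeq2). The interaction term of Tlr8 went from -0.0045 to 0.069, 0.059, 0.053 and 0.066 in the same fits. Tlr4 in anti-LTbR against ADU-S100 went from -0.0067 to 0.0044 with library totals. In deep libraries Tlr8 in combination against anti-LTbR was -0.022, and the interaction terms of Tlr2 and Tlr13 were -0.0024 and -0.059. The count of called members was 1 under the 2-fold rule in combination against untreated, and 0 in anti-LTbR against untreated, combination against anti-LTbR, combination against ADU-S100 and the interaction, beside 6.12%, 1.04%, 2.11%, 6.17% and 3.06% of all genes under that rule. It was 3 without a filter on low values in anti-LTbR against untreated. In deep libraries it was 0 in combination against anti-LTbR and in the interaction, and 2 in anti-LTbR against ADU-S100, where DESeq2 also gave 2. Library totals moved the share of calls that were higher in anti-LTbR than in ADU-S100, over all genes, from 52.7% to 64.6%, and DESeq2, the replicate block and the deep libraries moved several all-gene counts by over 1.5 times. In anti-LTbR against untreated these were 1203 higher and 1352 lower, against 820 and 840 with the block and 794 and 743 in deep libraries. In combination against anti-LTbR 1917 and 2587 became 739 and 711 in deep libraries, and in the interaction 1293 and 1947 became 738 and 830. In anti-LTbR against ADU-S100 563 and 506 became 863 and 773 with DESeq2, 405 and 305 without a filter, 273 and 172 with the block and 302 and 173 in the joint fit. Leaving out 1 tumor in turn gave 5 to 6 called members in combination against untreated, 3 to 6 in anti-LTbR against untreated, 4 to 7 in combination against anti-LTbR, 7 to 8 in combination against ADU-S100 and 2 to 4 in the interaction. The cause of these differences was not tested, beyond the fewer libraries or genes that some fits hold. In none of the 6 comparisons did all 8 pairs of tumors with the same number deviate together, so the numbers were not taken as pairs. This does not show that tumors of the same number share nothing. The correlations ran from -0.55 to 0.63 over all comparisons, with the highest means in ADU-S100 against untreated (0.19, from -0.12 to 0.50) and combination against anti-LTbR (0.17, from -0.23 to 0.51), and at most 3 of 8 tumors correlated best with their own number. The block ended the calls of Tlr13 in anti-LTbR against untreated (adjusted p 0.0655), Tlr5 and Tlr6 in combination against anti-LTbR (0.0775 and 0.0640) and Tlr8 in combination against ADU-S100 (0.0569), and left Tlr6 in anti-LTbR against untreated at the threshold itself (0.049998). It left 6, 4, 0, 5, 7, 0 and 3 members called with the replicate block, in the order of the report (combination, anti-LTbR and ADU-S100 against untreated, combination against anti-LTbR and against ADU-S100, anti-LTbR against ADU-S100, interaction).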

Other observations

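Tlr12, which with Tlr11 binds profilin, ran from 61.1 to 190 normalized counts in untreated tumors and from 113 to 249 in combination tumors, with overlap. Its log2 fold change was 0.60 ± 0.21 (limma adjusted p = 0.0290). Tlr11 was low, with 11.0 to 35.5 and 17.3 to 32.8 normalized counts, and was not called (0.51 ± 0.22, limma adjusted p = 0.0723).

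A second experiment of 20 tumors, 5 under each of the letters A to D, was not assigned to treatments because its treatment field names the combination for every library while another field names 4 treatments by letter. With letters alone, D against A gave 0 of 10 receptor genes called in the quasi-likelihood test of edgeR, and 0 at an unadjusted p under 0.05, while 156 of 15391 genes were called. On simulated data this design missed changes of the size seen for most receptors in the first experiment, so these counts do not show that the receptors did not differ. Tumor D3 held 8716257 reads, and the other D tumors up to 18789131. Without D3 again 0 of 10 were called, beside 1382 of 15751 genes. Tlr2 ran from 431 to 931 normalized counts under A and from 622 to 1432 under D, and Tlr3 from 547 to 658 and from 185 to 580, so the ranges overlapped.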
